A study of Homo sapiens with 4 samples.

Results

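The paired-box, sine oculis homeobox and eyes absent factors of muscle progenitors were taken as 9 genes by their symbols, PAX3, PAX7, SIX2, SIX4, SIX5, EYA1, EYA2, EYA3 and EYA4, out of 39323 genes in the expression tables. They were measured by RNA-seq in RD and JR1 cells, both established human lines of fusion-negative rhabdomyosarcoma (FN-RMS), a muscle-lineage tumor without a PAX fusion gene. Cells had been infected with a lentivirus carrying either a non-targeting hairpin (shSCR) or a hairpin against SKP2 (shSKP2), the substrate receptor of an SCF ubiquitin ligase. This gave 4 groups, RD shSCR, RD shSKP2, JR1 shSCR and JR1 shSKP2, with no other treatment or allele in the labels. Each group was 1 poly-A selected library, so a level has no replicate and a difference within a line, between 2 libraries, has no error or p-value. Over both lines, the knockdown was also tested with line as a block. The knockdown rests on 1 hairpin sequence in each line.

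PAX3 and PAX7 are paired-box transcription factors that keep muscle precursors and satellite cells in the progenitor state and switch on the myogenic regulators. Sine oculis proteins (SIX2, SIX4 and SIX5 here) are homeodomain factors that bind MEF3 sites in muscle genes, and eyes absent (EYA) proteins, which do not bind these sites themselves, join them as coactivators with phosphatase activity. PAX, sine oculis, EYA and DACH genes form a network that acts upstream of MYOD1 and MYOG in embryonic muscle, and PAX3 or PAX7 is joined to FOXO1 in the fusion-positive tumors.

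Levels are given as TPM, a share of all transcripts in a library with transcript length taken into account, and can therefore be set side by side between genes. A difference is the log2 ratio of 2 libraries after 1 TPM was added to each value, which understates the change of weakly expressed genes. A gene was tested where its TPM averaged 1 or more across the 4 libraries (12985 genes, 8 of the 9 members), and a gene is said to have risen or fallen where its log2 ratio was at least 1 in size. SKP2 itself was at 92.8 TPM in RD shSCR and 7.40 TPM in RD shSKP2, and at 46.5 TPM in JR1 shSCR and 2.72 TPM in JR1 shSKP2. The sequencing depth cannot be read from TPM and is unknown, and 21453 to 22645 genes were above 0 TPM per library. Short structural RNAs took 50.1% to 64.9% of the TPM, more with shSKP2 in both lines, and the median log2 ratio over the tested genes came to -0.27 (RD) and -0.21 (JR1). Members are therefore also given relative to that median where it matters. The lines carried the marks of their label. The 3 fusion-negative markers (EGFR, HMGA2 and FBN2) summed to 83.5 to 149 TPM, and none of the 5 fusion-positive markers passed 1 TPM in any library. Of 5 markers of the muscle lineage 4 were expressed, with sums of 354 to 699 TPM, while MYF5, a defining myogenic factor, was listed at 0 in every library.

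The promoters of PAX7 and EYA3, which passed the limit with shSKP2, and of PAX3, the closest relative of PAX7, are shown as RefSeq gives them in GRCh38.p14, from 250 bases before to 50 bases after the start that its promoter table uses. This is the gene's start in the authors' files for PAX7 and PAX3, and lies 61 bases inside the gene for EYA3. They lie at chr1:18630596-18630895, plus strand (PAX7), chr2:222298949-222299248, minus strand (PAX3) and chr1:28088561-28088860, minus strand (EYA3). Capitals mark CCAAT on either strand, which reads ATTGG on the opposite one, and the E-box CAGCTG.
PAX7: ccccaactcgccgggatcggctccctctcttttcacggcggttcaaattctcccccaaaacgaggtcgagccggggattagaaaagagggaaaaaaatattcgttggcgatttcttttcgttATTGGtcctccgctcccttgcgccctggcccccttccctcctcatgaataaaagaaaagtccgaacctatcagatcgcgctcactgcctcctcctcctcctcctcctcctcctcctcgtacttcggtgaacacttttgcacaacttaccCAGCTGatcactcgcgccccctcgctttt
PAX3: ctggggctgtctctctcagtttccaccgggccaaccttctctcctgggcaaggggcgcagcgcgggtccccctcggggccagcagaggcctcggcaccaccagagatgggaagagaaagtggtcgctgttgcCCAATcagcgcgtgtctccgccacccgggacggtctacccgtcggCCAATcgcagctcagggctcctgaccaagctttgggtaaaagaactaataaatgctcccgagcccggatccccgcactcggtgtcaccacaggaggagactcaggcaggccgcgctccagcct
EYA3: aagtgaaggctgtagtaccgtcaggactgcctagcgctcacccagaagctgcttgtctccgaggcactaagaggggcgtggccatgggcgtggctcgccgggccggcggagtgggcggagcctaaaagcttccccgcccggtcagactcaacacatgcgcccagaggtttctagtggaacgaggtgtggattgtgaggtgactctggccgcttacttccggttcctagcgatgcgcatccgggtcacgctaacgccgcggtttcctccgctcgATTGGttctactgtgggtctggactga
The PAX7 window held 1 CCAAT, at base -128 from the start on the opposite strand, and CAGCTG at base 22. PAX3 held 2 CCAAT, at -118 and -73, and EYA3 held 1 at base 24 on the opposite strand. Of the 6 members whose RefSeq promoter was searched (PAX3, PAX7, SIX2, SIX4, EYA3 and EYA4), 5 held CCAAT, against 35.7% of 27305 promoters of the same length. EYA4 was the one without it. The start used lies 193 bases inside the gene of the authors' files for SIX2 and 1017 bases inside for EYA4. Those windows may therefore miss the start of the measured gene. Only PAX7 held CAGCTG, against 17.7%. The general E-box CANNTG, which includes CAGCTG, was found in 3 of 6 and in 68.9% of all promoters. TCAGGTT, a MEF3 site, and TATAAA were found in none of the 6, against 3.4% and 12.0% of all. The motifs were chosen after these sequences had been read, and a match describes letters, not a bound site.

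PAX7, which marks satellite cells, fell with shSKP2 in both lines. Its level was 10.8 TPM in RD shSCR and 3.36 TPM in RD shSKP2, and 4.84 TPM in JR1 shSCR and 1.16 TPM in JR1 shSKP2. Both shSKP2 libraries lay below both shSCR libraries. The log2 ratio was -1.43 in RD and -1.43 in JR1, or a 3.20-fold and a 4.17-fold lower TPM. Over the scalings tried, these ratios ran from -1.65 to -1.16 in RD and from -1.97 to -1.22 in JR1, past the limit in each. A lower ratio was found for 310 other tested genes in RD and 424 in JR1, and 200 genes (1.54%) were lower than PAX7 when each gene was ranked by the smaller fall of both lines. In such bulk RNA, fewer cells with a transcript and less of it per cell cannot be told apart.

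PAX3, the paralog that acts in the embryonic limb and somite precursors, did not pass the limit in either line. It was at 10.9 TPM in RD shSCR, 10.7 TPM in RD shSKP2, 9.44 TPM in JR1 shSCR and 7.76 TPM in JR1 shSKP2. Its log2 ratio was -0.02 in RD and -0.25 in JR1. Set against the median of tested genes it was 0.25 in RD and -0.04 in JR1. With short structural RNA genes removed the JR1 ratio was 0.0062, so the sign of PAX3 turned with the scaling in both lines. The ratio of PAX7 to PAX3 within a library does not depend on the TPM total. It was 0.98 in RD shSCR and 0.31 in RD shSKP2, and 0.51 in JR1 shSCR and 0.15 in JR1 shSKP2, which is 3.14-fold and 3.43-fold lower. PAX7 thus made up 49.6% of the PAX3 and PAX7 transcripts in RD shSCR and 23.8% in RD shSKP2, with 33.9% and 13.0% in JR1. Against MYOD1, the myogenic regulator of both lines, PAX7 was 3.45-fold lower in RD and 5.43-fold lower in JR1.

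**Figure D1:**
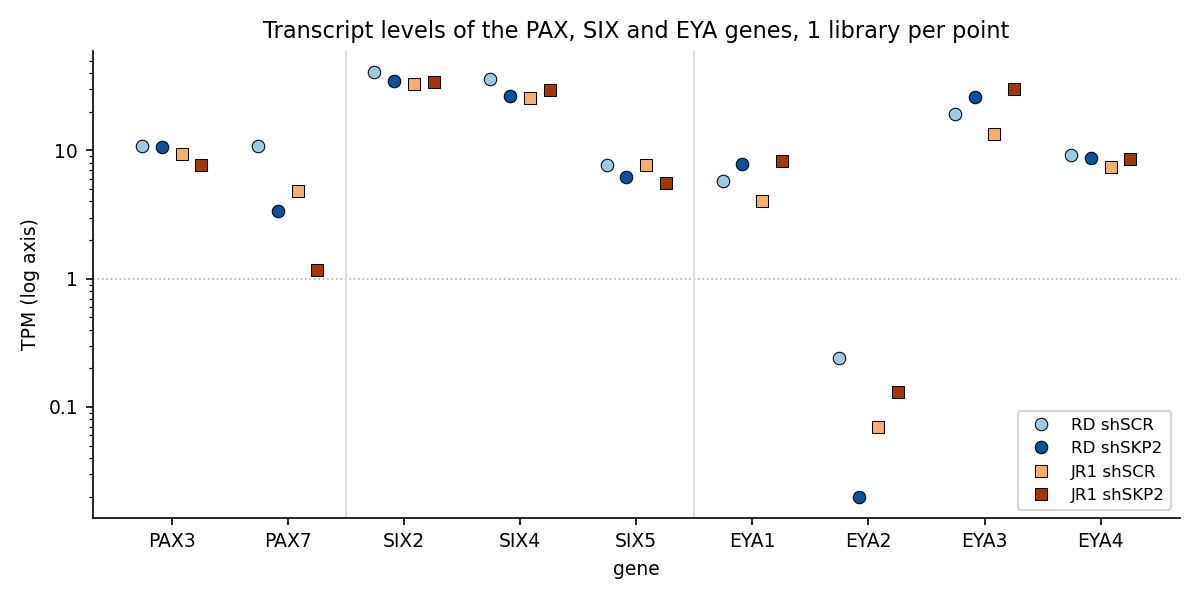
TPM of the 9 genes on a log axis, 1 point per library, with RD as circles, JR1 as squares and shSKP2 in the darker color; the dotted line is 1 TPM. PAX7 is lowest in JR1 shSKP2 at 1.16 TPM, EYA1 and EYA3 are higher in both shSKP2 libraries than in both shSCR libraries, and EYA2 stays under 1 TPM.

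Among the sine oculis genes, SIX2 and SIX4 were the most abundant of the 9 members in every library but JR1 shSKP2, where EYA3 came between them. SIX2, best known from kidney and head development, was at 40.9 TPM in RD shSCR, 34.8 TPM in RD shSKP2, 32.7 TPM in JR1 shSCR and 34.2 TPM in JR1 shSKP2. SIX4, which acts in muscle precursors, was at 36.0 TPM in RD shSCR, 26.6 TPM in RD shSKP2, 25.8 TPM in JR1 shSCR and 29.5 TPM in JR1 shSKP2. Neither passed the limit. The log2 ratio of SIX2 was -0.23 in RD and 0.06 in JR1, and that of SIX4 came to -0.42 (RD) and 0.19 (JR1). In RD the sign of SIX2 turned relative to the median of all genes (0.04), and SIX4 came to -0.15.

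SIX5, which lies next to the myotonic dystrophy kinase gene DMPK, was at 7.75 TPM in RD shSCR, 6.22 TPM in RD shSKP2, 7.66 TPM in JR1 shSCR and 5.55 TPM in JR1 shSKP2. Both shSKP2 values lay below both shSCR values, but the log2 ratios of -0.28 in RD and -0.40 in JR1 did not pass the limit, and in RD the sign turned when short structural RNA genes were removed (0.08). DMPK, 457 bases from SIX5 by the deposited coordinates, had log2 ratios of 0.32 in RD and 0.15 in JR1. The ratio of SIX5 to DMPK was thus 1.56-fold lower in RD and 1.54-fold lower in JR1. DM1-AS, a long noncoding RNA that overlaps SIX5, was at 0.98 to 2.19 TPM. The strand setting used for counting was not given in the sources used here, so reads from both overlapping genes may not be fully separated.

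EYA3, an EYA coactivator expressed in many tissues, rose with shSKP2 in JR1. It was at 19.3 TPM in RD shSCR, 25.9 TPM in RD shSKP2, 13.6 TPM in JR1 shSCR and 30.2 TPM in JR1 shSKP2. The shSKP2 library was the higher one in both lines. Its log2 ratio was 1.10 in JR1, a 2.23-fold higher TPM with 188 tested genes higher, and 0.41 in RD, where 765 genes were higher and the limit was not passed. EYA1, an EYA coactivator of myogenic precursors, was at 5.83 TPM in RD shSCR, 7.89 TPM in RD shSKP2, 4.06 TPM in JR1 shSCR and 8.34 TPM in JR1 shSKP2. The 2 genes followed each other closely, with EYA1 at 0.30 of EYA3 in RD shSCR, 0.30 in RD shSKP2, 0.30 in JR1 shSCR and 0.28 in JR1 shSKP2. The log2 ratio of EYA1 was 0.38 in RD and 0.88 in JR1, short of the limit, although its JR1 ratio lay between 1.02 and 1.24 under the other scalings, which add less to each value, center on the median or rescale without structural or noncoding RNA.

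EYA4, a further coactivator of the family, was at 9.22 TPM in RD shSCR, 8.71 TPM in RD shSKP2, 7.43 TPM in JR1 shSCR and 8.53 TPM in JR1 shSKP2. Its log2 ratio was -0.07 in RD, with a sign that turned relative to the median (0.20), and 0.18 in JR1. Within a library, EYA3 was 2.10 times EYA4 in RD shSCR and 2.98 times in RD shSKP2, and 1.82 times in JR1 shSCR and 3.55 times in JR1 shSKP2. EYA1 was 0.63 and 0.91 of EYA4 in RD, and 0.55 and 0.98 in JR1. EYA2 was close to absent, at 0.24 TPM in RD shSCR, 0.02 TPM in RD shSKP2, 0.07 TPM in JR1 shSCR and 0.13 TPM in JR1 shSKP2, and was not tested. Summed over the 4 EYA genes, the level was 34.6 TPM in RD shSCR and 42.6 TPM in RD shSKP2, and 25.1 TPM in JR1 shSCR and 47.2 TPM in JR1 shSKP2. The gene pairs and sums were chosen after the values had been seen.

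**Figure D2:**
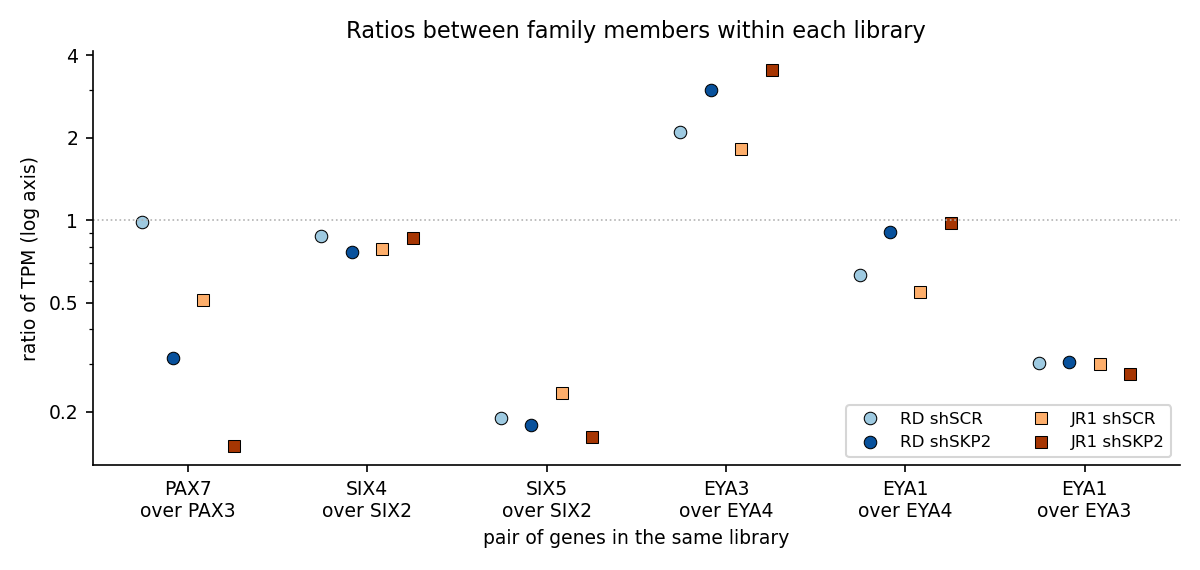
Ratio of TPM between family members in the same library on a log axis, 1 point per library, colors and shapes for line and hairpin. The PAX7 to PAX3 ratio is lower in the shSKP2 library of each line, EYA3 to EYA4 and EYA1 to EYA4 are higher, and EYA1 to EYA3 stays between 0.28 and 0.30.

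Taking the 8 tested members together in RD, none rose, against 1.08% of all tested genes, and 1 (PAX7) fell, against 7.37%. Their median log2 ratio was -0.15, beside -0.27 over all tested genes. In JR1, 1 member rose (EYA3), against 1.78% of all genes, and 1 fell (PAX7), against 9.05%, with a median of 0.12 beside -0.21. With 8 genes, 1 member is 12.5%, so the counts are too small to be read against these shares.

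With both lines as a pair of blocks, a limma fit of the 4 libraries left 1 residual degree of freedom. Its error combines the difference between the responses of the lines with a variance drawn from all genes. That shared variance weighed 5.386 degrees of freedom, so SE and p-values rest mostly on other genes. They do not measure how well the lines agree for a member. The JR1 ratio minus the RD ratio was 0.70 for EYA3, 0.50 for EYA1 and -0.0047 for PAX7. PAX7 changed by -1.43 ± 0.15 on the log2 scale (mean over both lines and SE, lower in 2 of 2 lines), with a Benjamini-Hochberg adjusted p of 0.00225. EYA3 changed by 0.75 ± 0.19 (adjusted p = 0.0268 in limma) and EYA1 by 0.63 ± 0.17 (adjusted p = 0.0357 in limma), each higher in 2 of 2 lines. The other 5 tested members had adjusted p-values of 0.114 (SIX5) to 0.807 (EYA4) in limma. Over all tested genes 3.84% were higher and 26.6% lower at an adjusted p under 0.05. After removal of short structural RNA genes 14736 genes were tested, of which 1616 were higher and 1537 lower. The share of higher genes was thus larger than as deposited, and that of lower genes smaller. PAX7, EYA3 and EYA1 stayed past the threshold, with adjusted p-values of 0.00518, 0.0068 and 0.0107 in limma. The fit was added after the data had been seen, and with 2 lines it says little of how the responses vary. It was run with 1 TPM added only, where the PAX7 ratios of the lines nearly coincide. With 0.1 TPM added, the PAX7 ratios were -1.65 in RD and -1.97 in JR1.

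**Figure D3:**
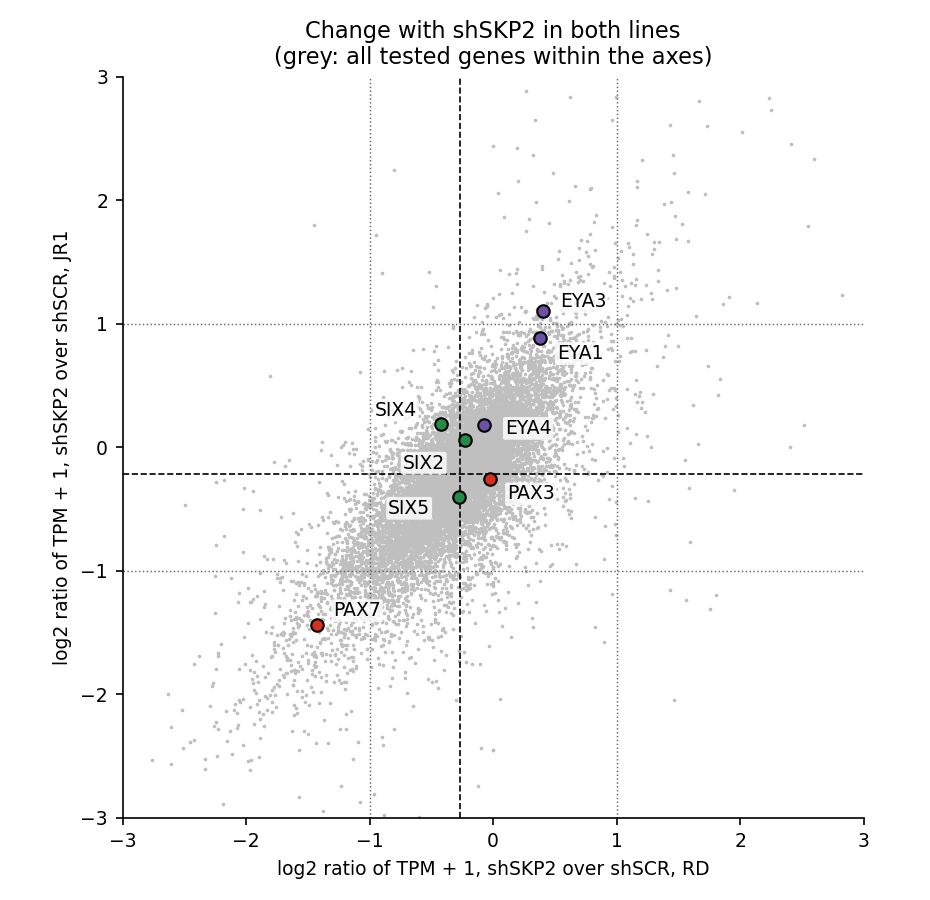
Log2 ratio of TPM + 1, shSKP2 over shSCR, in RD (x axis) and JR1 (y axis); grey points are tested genes, colored points the 8 tested members (PAX red, sine oculis green, EYA purple), dashed lines the medians of all tested genes and dotted lines the limits of -1 and 1. PAX7 lies past the lower limit in both lines at -1.43, and EYA3 past the upper limit in JR1 only, at 1.10.

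Between the lines with shSCR, all 8 tested members were lower in JR1 than in RD, with a median log2 ratio of -0.37 beside -0.23 over all genes. PAX7 alone passed the limit, at -1.01, or 2.22-fold lower, against 6.5% of all tested genes that were lower and 3.45% that were higher. The sign of SIX5 (-0.01) and of PAX3 (-0.19) turned relative to the median. With shSKP2, PAX7 was again the only member past the limit at -1.01, or 2.90-fold lower in JR1, against 5.39% of all genes lower and 2.7% higher, and the median of the members was -0.03 beside -0.17. Relative to the median of all genes, PAX7 came to -0.78 with shSCR and -0.84 with shSKP2, short of the limit in both. EYA3 was below RD in JR1 shSCR (-0.48) and above it in JR1 shSKP2 (0.21), both short of the limit. These comparisons use the same 4 libraries as those above.

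**Figure D4:**
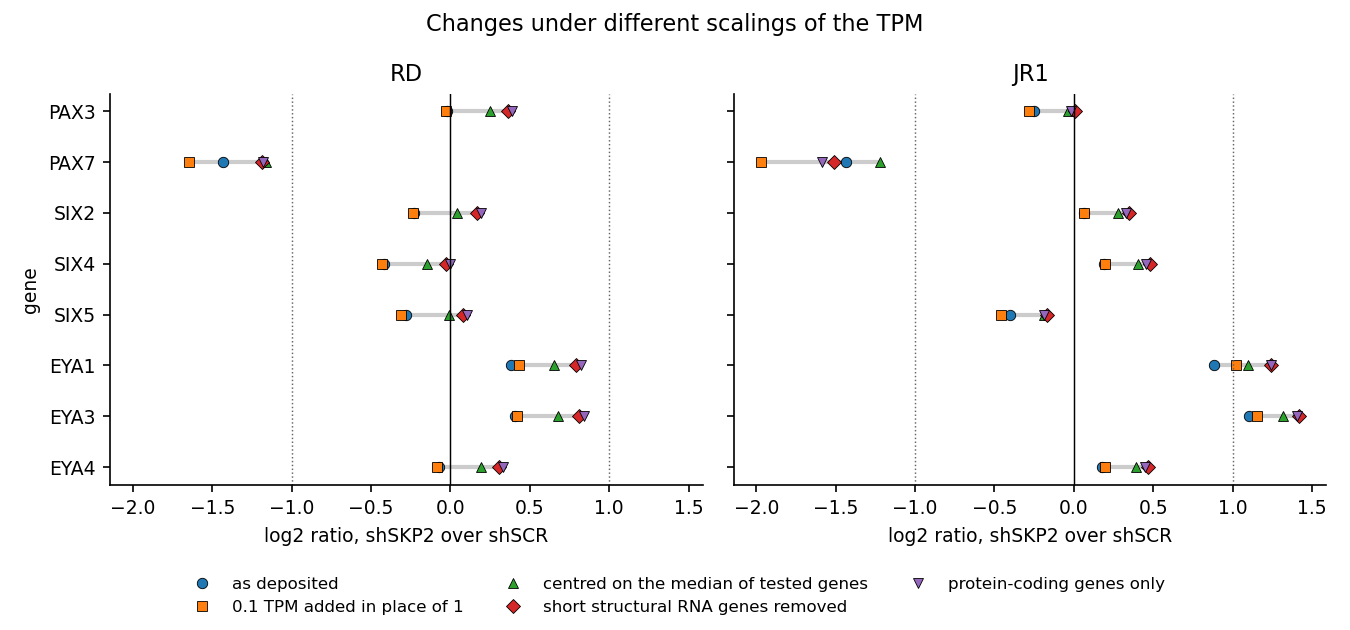
Log2 ratio of the 8 tested members, shSKP2 over shSCR, in RD (left) and JR1 (right) under 5 ways of scaling the TPM, with dotted lines at -1 and 1 and a grey bar over the range. PAX7 stays past -1 in both lines, EYA3 past 1 in JR1, and in RD the points of PAX3, SIX2, SIX5 and EYA4 fall on both sides of 0. In JR1 those of PAX3 also do, with the highest at 0.0062.

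Of 12 cofactors of these proteins 9 were tested, and none passed the limit, where 1.08% of all tested genes rose and 7.37% fell in RD and 1.78% rose and 9.05% fell in JR1, shares that leave less than 1 call among 9 genes in either line. They had a median log2 ratio of -0.53 in RD and -0.08 in JR1, the latter turning to 0.14 relative to all genes, and 1 passed the limit in JR1 once short structural RNA genes were removed. The highest were NEDD4 in RD (0.49), a ubiquitin ligase that targets PAX7, and TLE4 in JR1 (0.70), a Groucho-type corepressor. The lowest were TLE1 in RD (-0.65) and CARM1 in JR1 (-0.45), a methyltransferase that modifies PAX7. DACH1 and DACH2, the usual partners of sine oculis and EYA proteins, were at 0.27 TPM or less. Of the other 7 PAX genes only PAX2 and PAX6 were tested. PAX2, a kidney factor, was at 8.28 TPM in RD shSCR, 6.99 TPM in RD shSKP2, 0.58 TPM in JR1 shSCR and 1.46 TPM in JR1 shSKP2. Its ratios with shSKP2 were -0.22 in RD and 0.64 in JR1, and those of PAX6, an eye and brain factor, were -0.34 and -0.20. PAX2 passed the limit in JR1 with 0.1 TPM added, with short structural RNA genes removed, and over protein-coding genes alone.

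Of 10 genes listed as PAX3 and PAX7 targets in muscle precursors, 7 were tested. With shSKP2, 2 fell and none rose in RD (7.37% and 1.08% of all tested genes), and 3 fell and none rose in JR1 (9.05% and 1.78%), with medians of -0.44 and -0.16, the latter turning to 0.05 relative to all genes. FGFR4, a growth factor receptor of muscle precursors, was at 49.3 TPM in RD shSCR, 12.6 TPM in RD shSKP2, 46.9 TPM in JR1 shSCR and 17.3 TPM in JR1 shSKP2, with log2 ratios of -1.89 and -1.39. ID3, an inhibitor of myogenic bHLH factors, had ratios of -1.19 in RD and -2.28 in JR1, and relative to the median its RD ratio was -0.92, which leaves 1 fall in RD. CXCR4, a chemokine receptor of migrating precursors, fell in JR1 (-1.23) and had a ratio of -0.44 in RD. The highest were LBX1 in RD (0.18), a homeobox factor of migrating precursors, and MYOD1 in JR1 (0.38). MYF5 and ITM2A, also on the list, were at 0 in all libraries.

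Of 12 genes listed as targets of sine oculis and EYA proteins in muscle, 10 were tested, and 1 rose in RD and 3 in JR1 with no fall in either, where 1.08% and 1.78% of all tested genes rose. With a pseudocount of 0.1 TPM these counts were 3 rises and 2 falls in RD and 4 rises in JR1, and with every gene above 0 TPM there was 1 fall in JR1. MYLPF, a fast skeletal myosin light chain, was at 15.6 TPM in RD shSCR, 44.0 TPM in RD shSKP2, 88.7 TPM in JR1 shSCR and 355 TPM in JR1 shSKP2, with log2 ratios of 1.44 and 1.99. CKM, muscle creatine kinase, had a log2 ratio of 0.96 in RD and rose in JR1 (2.65), as did TNNT3 (1.75), a fast troponin T. The median of the list was -0.11 in RD and 0.26 in JR1, and relative to all genes it was 0.16 and 0.47. In JR1 its sign depended on the genes kept, at -0.26 with every gene above 0 TPM and -0.32 with a mean of at least 5 TPM. Relative to all genes, 3 passed the limit in RD, CKM (1.23) and MYOG (1.14) with MYLPF, and 4 in JR1. The lowest in JR1 was ENO3 (-0.65), the muscle enolase.

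Of 22 genes of muscle progenitors and satellite cells, 16 were tested, with 4 falls and no rise in RD (7.37% and 1.08% of all tested genes) and 5 falls and 2 rises in JR1 (9.05% and 1.78%). In RD there were 2 rises once short structural RNA genes were removed or protein-coding genes alone were kept. The falls shared by both lines were those of HES1 (-2.07 and -2.15) and HEYL (-1.60 and -1.81), transcriptional targets of Notch, of ITGA7 (-1.39 and -1.86), the laminin receptor subunit, and of PITX3 (-1.71 and -1.05), a homeobox factor, which came to -0.83 in JR1 relative to the median and short of the limit. HES1 was at 8.30 TPM in RD shSCR, 1.21 TPM in RD shSKP2, 17.4 TPM in JR1 shSCR and 3.14 TPM in JR1 shSKP2. CXCR4 was the further fall in JR1. NCAM1, a cell adhesion molecule, was among the genes that rose in JR1 (1.32), and the highest in RD was SDC4 (0.65), a proteoglycan. The list had a median of -0.51 (RD) and -0.18 (JR1), the latter turning to 0.04 relative to all genes. This list and the PAX target list share MYF5, CXCR4, SPRY1 and LBX1. Of 6 fibroblast markers, of which 5 passed 1 TPM, the summed level was 1363 to 1473 TPM in RD shSCR, RD shSKP2 and JR1 shSCR and 592 TPM in JR1 shSKP2, with DCN at 0.06 TPM or less. Of the 5 tested, 3 had log2 ratios below 0 in RD and 5 in JR1. In each line 2 fell and none rose, where 7.37% of all tested genes fell in RD and 9.05% in JR1. Log2 ratios of COL1A1 were -1.98 in RD and -2.54 in JR1, and those of COL3A1, the most abundant, were 0.37 and -0.83. Those of LUM were 0.29 and -0.40, with LUM at only 0.05 TPM in RD shSCR and 0.28 TPM in RD shSKP2. Endothelial and epithelial markers summed to at most 0.45 TPM and leukocyte markers to at most 2.95 TPM. Their part in these results was not tested.

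**Figure D5:**
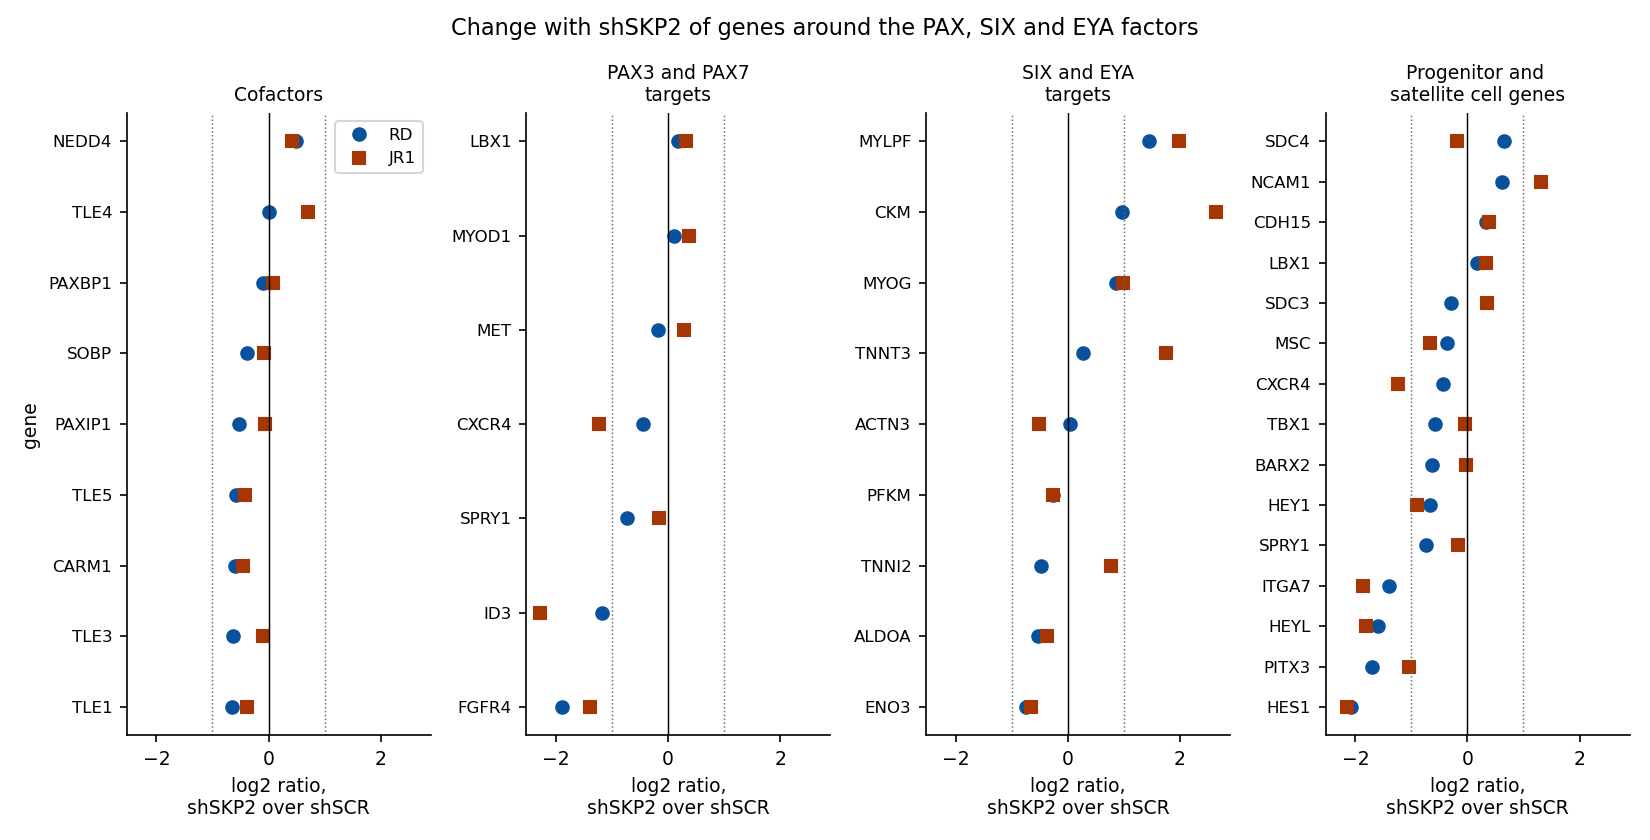
Log2 ratio of TPM + 1, shSKP2 over shSCR, for tested genes of 4 lists in RD (circles) and JR1 (squares), with dotted lines at -1 and 1. No cofactor passes either line, FGFR4 and ID3 lie below -1 in both lines, MYLPF lies above 1 in both, and HES1 is the lowest progenitor gene in both.

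The profile of each tested member over the 4 libraries was compared with those of 12864 tested genes without short structural RNAs, by Euclidean distance of log2(TPM + 1) after centering on the gene's own mean. Closest to PAX7 were CNRIP1 (0.06), LTBP3 (0.11) and PRR11 (0.13). Like PAX7, CNRIP1 was highest in RD shSCR (7.97 TPM) and lowest in JR1 shSKP2 (0.68 TPM). Closest to EYA3 were PER2, EIF4E2 and PGPEP1 (each 0.07), and to EYA1 EIF4EBP2 (0.06), C1orf216 (0.07) and SOCS7 (0.09). The nearest 3 were USP35, VOPP1 and SEC16A for PAX3, ZNF598, INO80B-WBP1 and RPL14 for SIX2, RPS4X, ZFAS1 and PTPRU for SIX4, and GRAMD1A, HSPA5 and CBY1 for SIX5. MFSD13A and SYVN1 were among the nearest 3 for EYA4. With 4 libraries, close profiles are a description of these values only.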

How the data were processed

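Per the labels and the study's methods, the authors made poly-A selected directional libraries, read them as pairs of 150 bases, aligned them to GRCh38 with STAR 2.7.9a and deposited RSEM 1.3.2 TPM, 1 value per gene and library with 2 decimals. The TPM were used as deposited. Log2 ratios of TPM with 1 TPM added were computed between libraries, without a test within a line, since each group is 1 library. A limma 3.58.1 fit of log2(TPM + 1) in the 4 libraries, with line as block, gave p-values for shSKP2 over both lines. Named genes were all 9 members, for each list the highest and lowest tested gene of each line and those past 1 in the same direction in both lines, the nearest protein-coding genes, and the 3 nearest profiles. CXCR4, TNNT3, NCAM1, DACH1, DACH2, PAX2, PAX6, ITM2A, MYF5, DCN, COL3A1 and LUM, and CKM and MYOG in RD, were named after their values were seen. The members and lists, written from general knowledge, were chosen with earlier results of these data known. Alternatives were a pseudocount of 0.1 TPM, centering on the median of tested genes, removal of 683 short structural RNA genes, inclusion of every gene above 0 TPM, a mean of at least 5 TPM and a limit of 1.5-fold. Rescaling to protein-coding genes and the limma fit were added after seeing the data. A few genes that the naming rule selects are not reported here or drawn. Other sine oculis genes were not analysed here. Promoters came from RefSeq, and those of 6 of 9 members were used, without SIX5, EYA1 and EYA2. Any member's entry on chromosome 8, where EYA1 lies, was left out. Python 3.11.15 with pandas 2.3.3 was used, and the calculations were checked on simulated data.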

Additional observations from a re-analysis of the deposited data

Results flagged for a closer look

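SIX2, SIX4 and EYA4 had log2 ratios of opposite sign in the lines with shSKP2, lower in RD and higher in JR1. The ratio in JR1 minus that in RD was 0.29 for SIX2, 0.61 for SIX4 and 0.25 for EYA4. The differences were not tested, since each ratio comes from 2 libraries, and 2765 of 12985 tested genes (21.3%) also had opposite signs. A larger difference in size between the lines was found for 38.6% of tested genes for SIX2, 10.4% for SIX4 and 44.5% for EYA4. Set against the median of tested genes, SIX2 (0.04 and 0.28) and EYA4 (0.20 and 0.39) were above 0 in both lines, and SIX4 was at -0.15 and 0.40. The RD ratio of SIX4 was -0.03 with short structural RNA genes removed and -0.0039 over protein-coding genes, close to 0.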

How the results depend on the processing

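PAX7 passed the limit with shSKP2 in both lines, and EYA3 in JR1, under every alternative. A pseudocount of 0.1 TPM, inclusion of every gene above 0 TPM, a mean of at least 5 TPM and a limit of 1.5-fold moved no count of members by over 1.5 times, although the first and the last added EYA1 in JR1. Centering, removal of short structural RNA genes and restriction to protein-coding genes moved the medians of the members, by construction, to 0.12, 0.24 and 0.26 in RD, and to 0.33, 0.41 and 0.39 in JR1. Between the lines they gave -0.14, -0.18 and -0.093 with shSCR, and 0.15, 0.074 and 0.12 with shSKP2. With shSCR the count of members past the limit between the lines went to 0 under all 3, and with shSKP2 to 0 under centering alone, as PAX7 came short of it. A median was counted as moved at 0.1 on the log2 scale, a chosen value with no replicate spread behind it. The labels give no replicate numbers, and the libraries of each line were paired in the limma fit with line as block. Depth is unknown, so no precision can be given, least of all for EYA2 and for PAX7 in JR1 shSKP2.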

Other observations

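The genes next to the members had levels of their own. By the deposited coordinates, PAX7 is overlapped by none of the other measured genes, and its protein-coding neighbors KLHDC7A and TAS1R2 were at 0.02 TPM or less. SLC2A10, on one side of EYA2, was at 8.06 TPM in RD shSCR, 3.23 TPM in RD shSKP2, 7.93 TPM in JR1 shSCR and 2.61 TPM in JR1 shSKP2, with log2 ratios of -1.10 and -1.31, while ZMYND8 on the other side had 0.32 and 0.20. MSC, a bHLH repressor 293456 bases from EYA1, had ratios of -0.37 and -0.67 as deposited, opposite in sign to those of EYA1. Relative to the median of tested genes MSC came to -0.10 in RD, close to 0, and -0.45 in JR1. XKR8, 2251 bases from EYA3, had ratios of -0.34 and -0.51, also opposite in sign to its neighbor.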
